A study of Mus musculus with 22 samples.

Results

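Deletion of *Phf8* was examined in 2 brain regions, and the comparison described here is between its effect in the prefrontal cortex (PFC) and its effect in the ventral striatum (STR). The 12 samples with these tissue labels were chosen from the 22 of the series by tissue and genotype alone: 3 WT and 3 *Phf8* KO samples of each region, all labelled as 2 months old and B6x129SvJ. The RNA was total RNA prepared for sequencing with the TruSeq kit, and the deposited values were read counts per gene. The gene is X-linked, and its KO allele lacks exons 7 and 8, which encode part of the JMJC domain. These exons were flanked with loxP sites in ESCs and removed there by a Cre vector before clonal lines were injected into blastocysts, so the deletion was inherited by all cells and was not restricted to the brain, and the allele was kept on a mixed background of C57B6 and 129SvJae. No treatment or further allele is named for either genotype. The labels do not say whether the samples came from separate animals, so the p-values below measure the spread between these samples, which may in part be technical.

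PHF8 is a histone demethylase of the JMJC family that binds H3K4me3 at promoters through its PHD finger and removes methyl groups from H3K9, H4K20 and H3K27, and mutations in the human gene cause X-linked intellectual disability. The prefrontal cortex holds layers of glutamatergic projection neurons with GABAergic interneurons, whereas the great majority of neurons of the ventral striatum are GABAergic projection neurons that carry D1 or D2 dopamine receptors. Both regions contain oligodendrocytes, astrocytes and microglia. The comparison asks which genes respond to the loss of *Phf8* differently in the cortex and the striatum, and how far the responses of all genes agree.

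Total counts ranged from 5898286 to 10148073 per sample and did not separate the genotypes. *Phf8* (chromosome X of GRCm38, 151520672 to 151633859, plus strand) had 51.4, 49.4 and 42.9 CPM (its counts per 1000000 counts of the library, after TMM scaling) in the 3 WT and 23.2, 17.1 and 16.4 in the 3 KO samples of PFC, against 56.3, 49.1 and 52.3 in WT and 23.1, 22.8 and 14.9 in KO STR. Every KO sample was below every WT sample of its region, so no label went against the targeted gene, and the exons that remain in the KO allele were counted too. The log2 fold change was -1.34 (SE 0.16) in PFC and -1.37 (SE 0.15) in STR, and these differed by 0.02 (SE 0.22, unadjusted p = 0.911). The regions matched their labels: the summed level of 18 striatal projection neuron markers was 876 to 989 CPM in the PFC samples and 3583 to 4742 CPM in the STR samples, and 8 cortical glutamatergic neuron markers summed to 1895 to 2571 CPM in PFC and 848 to 1533 CPM in STR.

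Several STR libraries stood apart in markers of neighbouring tissue. STR KO replicate 1 had the lowest level of cortical glutamatergic markers among the STR samples (848 CPM, with 2.41 CPM of *Neurod6* against 18.6 to 44.7 in the other 5) and the highest of hypothalamic markers (496 CPM against 104 to 176). Of the hypothalamic defining genes, *Oxt* and *Avp*, which encode oxytocin and vasopressin, reached 45.0 and 71.3 CPM in it. Its striatal projection neuron markers were the lowest of the 6 STR samples at 3583 CPM. STR KO replicate 2 had 473 CPM of meningeal and fibroblast markers against 165 to 253 CPM in the other STR samples. Immediate early genes, which neuronal activity induces within minutes, were lowest in WT replicate 2 and KO replicate 3 of their groups in both regions (1685 and 1625 CPM in PFC, 1297 and 1059 CPM in STR).

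**Figure D1:**
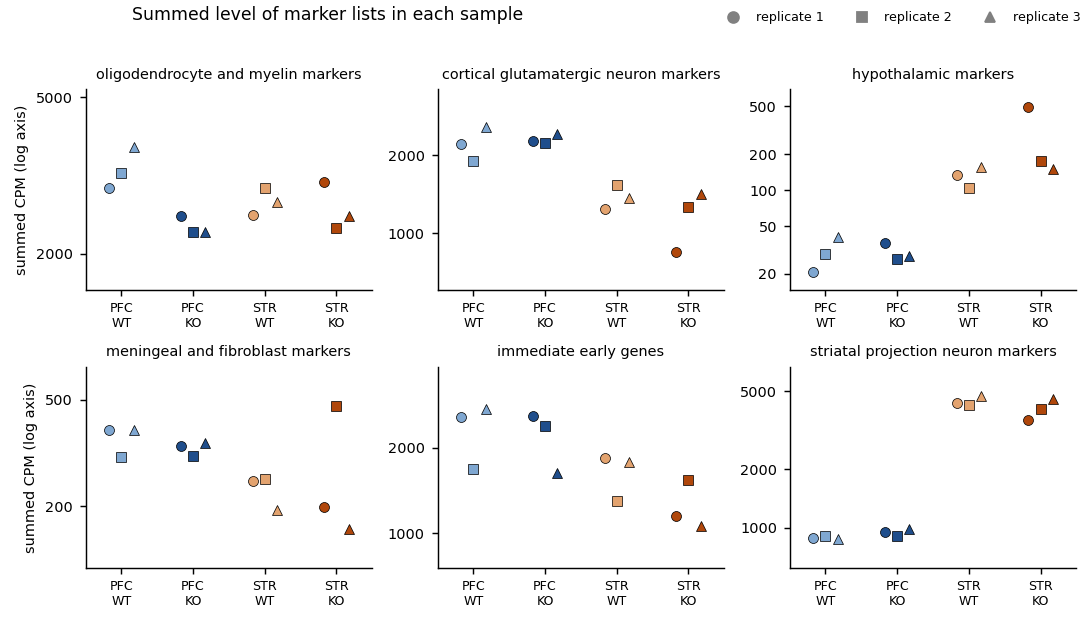
Summed CPM (log axis) of 6 marker lists in each of the 12 samples, with the marker shape giving the replicate number. STR KO replicate 1 lies at 848 CPM of cortical glutamatergic markers and 496 CPM of hypothalamic markers, and STR KO replicate 2 at 473 CPM of meningeal markers, while the myelin list is lower in every KO than in every WT sample of PFC.

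Of 16028 genes tested, *Rxfp1* alone had a KO effect that differed between the regions at an FDR under 0.05, which is 0.00624% of the genes. FDR here is the Benjamini-Hochberg adjusted p of edgeR's quasi-likelihood test over all genes, and the difference is the log2 fold change in PFC minus that in STR, so that a positive value means a more positive KO effect in PFC. At an unadjusted p under 0.05 there were 1027 genes (6.41%), of which 403 (2.51%) had a positive and 624 (3.89%) a negative difference. Of the 1027, 830 had fold changes of opposite sign in the regions and 197 of the same sign, where 59.3% of all genes had the same sign. Choosing genes by the difference favours opposite signs, so nothing is read from that count. When the PFC and STR samples that carry the same number were taken as 1 animal, 12 genes (0.0749%) had an FDR under 0.05, 6 in each direction (0.0374% and 0.0374%), and 1636 (10.2%) had an unadjusted p under 0.05. The 12 were *Rxfp1*, *Actn2*, *Rxrg*, *Sstr2*, *Gnb4* and *Fras1* with a more positive effect in PFC, and *Nkx6-2*, *Il33*, *Ermn*, *Clic4*, *Fgfr2* and *Aspa* with a more positive effect in STR. With the animal as a random effect in limma-voom, *Rxfp1* was the single gene called. Leaving out STR KO replicate 1 gave 3 genes (*Rxfp1*, *Itih3* and *Pappa2*) and STR KO replicate 3 gave 2 (*Rxfp1* and *Col9a2*) without that pairing. In all of these, fewer cells of a type and less RNA per cell cannot be told apart, as each sample is bulk tissue.

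*Rxfp1* encodes the receptor of the hormone relaxin, a G protein-coupled receptor that raises cAMP. It lies on the minus strand of chromosome 3 (79641611 to 79737880). In PFC its level was 38.0, 38.1 and 46.5 CPM in WT and 66.4, 60.8 and 65.8 CPM in KO samples, or 40.9 ± 4.90 (SD, n = 3) and 64.3 ± 3.06 (SD, n = 3). In STR, where the gene was several times lower, it was 8.38, 11.1 and 8.67 CPM in WT and 3.67, 3.55 and 4.37 CPM in KO samples, or 9.39 ± 1.51 (SD, n = 3) and 3.86 ± 0.443 (SD, n = 3). All 3 KO samples were thus above all WT samples in PFC and below all of them in STR. *Rxfp1* rose 1.58-fold in PFC (log2 fold change 0.66, SE 0.11, FDR 0.0287) and fell to 0.412 of the WT level in STR (log2 fold change -1.28, SE 0.17, FDR 0.0152). The difference was 1.94 (SE 0.20, FDR 0.00155) and was 1.79 to 2.04 when any 1 library was left out, with an FDR of 0.00116 to 0.0188. Taken as 1 animal per number, the samples gave an FDR of 0.00450.

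The other relaxin receptors and ligands were listed too, and 5 of 8 passed the filter on low counts. None besides *Rxfp1* had an FDR under 0.05 for the difference. *Rxfp2*, a receptor of the insulin-like peptide INSL3, had the opposite pattern in STR: 0.679, 0.654 and 0.406 CPM in WT and 3.29, 1.14 and 1.13 CPM in KO samples, against 7.11, 5.90 and 6.45 and 5.85, 6.61 and 3.30 CPM in PFC. Its difference was -1.94 (SE 0.60, unadjusted p = 0.00587), with all STR KO samples above all STR WT samples at levels under 4 CPM. For *Rxfp3*, the receptor of relaxin-3, the difference was -0.85 (SE 0.45, unadjusted p = 0.0833), and *Rln1*, which encodes relaxin itself, was under 3 CPM in all samples. The median difference of the 5 was 0.37, and -0.04 without PFC WT replicate 2. The number higher in KO STR at an unadjusted p under 0.05 (6.74% of all genes) went from 2 to 0 without STR KO replicate 1.

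The genes that passed an unadjusted p under 0.05 in both regions with opposite signs numbered 28, *Rxfp1* included, or 0.175% of the genes, 20 up in PFC and down in STR (0.125%) and 8 the other way (0.0499%). With 1 library left out the number was 15 (without PFC KO replicate 2) to 78 (without STR KO replicate 3). Of the 8 with the smallest p for the difference, of which *Rxfp1* is 1, all 8 had KO and WT samples that did not overlap in PFC and 7 in STR, where 17.1% and 13.5% of all genes did not overlap. These shares were made up of 9.78% with KO above WT and 7.33% below in PFC, and of 7.21% above and 6.25% below in STR. The 8 genes were chosen by their p in both regions and for the difference, so nothing is read from their non-overlap. Non-overlap in both regions in opposite directions was found for 79 of all genes (0.493%). *Actn2*, encoding the actin crosslinker alpha-actinin 2 of dendritic spines, had 15.1, 15.1 and 11.5 CPM in WT and 18.2, 24.5 and 20.8 CPM in KO PFC. In STR it had 92.8, 84.3 and 80.4 CPM in WT and 51.7, 74.1 and 66.1 CPM in KO samples. The groups were separate in both regions, KO above WT in PFC and below WT in STR, where the lowest value was that of replicate 1. The fold changes were 0.59 (SE 0.16) in PFC and -0.43 (SE 0.13) in STR on the log2 scale, and their difference of 1.01 (SE 0.21) had an FDR of 0.384, or 0.0114 with 1 animal per number.

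*Amz1*, which encodes a zinc metallopeptidase, went from 16.6, 21.6 and 20.4 to 25.7, 26.1 and 28.3 CPM in PFC and from 53.4, 49.7 and 49.2 to 44.4, 42.9 and 40.6 CPM in STR, WT samples before KO samples. *Trmt9b*, a member of a tRNA methyltransferase family, went from 26.9, 27.4 and 25.1 to 31.1, 30.4 and 31.6 CPM in PFC and from 31.8, 33.2 and 30.7 to 24.1, 22.9 and 26.8 CPM in STR. In both genes the groups were separate in each region, with differences of 0.70 (SE 0.14) and 0.60 (SE 0.13). *Fras1*, an extracellular matrix gene, had 55.0, 49.7 and 40.9 CPM in WT and 72.7, 69.2 and 79.6 CPM in KO PFC, but its STR groups overlapped (158, 117 and 111 CPM in WT, 108, 114 and 87.7 CPM in KO). *Pappa2*, a protease of insulin-like growth factor binding proteins, and *Sla2*, an adaptor of immune cell receptors, had the largest differences of the 8, 2.60 (SE 0.54) and 2.24 (SE 0.49), at levels under 8 CPM in every sample. *Clic4*, an intracellular chloride channel gene, was the single gene of the 8 that was lower in KO PFC (129, 149 and 137 CPM in WT, 124, 111 and 105 CPM in KO) and higher in KO STR (122, 120.5 and 122 CPM in WT, 169, 140.0 and 135 CPM in KO). Its difference of -0.57 (SE 0.13) had an FDR of 0.384, or 0.0490 with 1 animal per number.

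**Figure D2:**
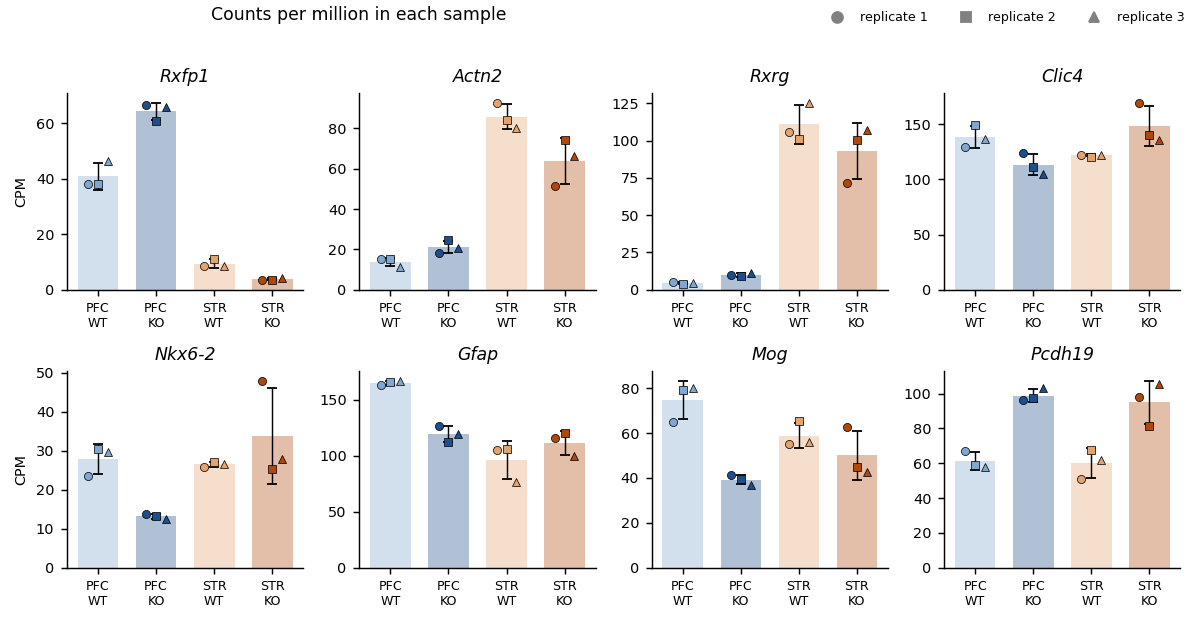
CPM of 8 genes in each sample. Bars are means of 3 samples, error bars are SD and points are samples, with the marker shape giving the replicate number. *Rxfp1* and *Actn2* are higher in KO than in WT samples of PFC and lower in STR, *Clic4* is the reverse, *Rxrg*, *Nkx6-2*, *Gfap* and *Mog* are separate in PFC alone, and *Pcdh19* is higher in KO samples of both regions.

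In each direction of the difference the 12 genes with the smallest p were described. Among the 12 with a more positive effect in PFC, KO and WT samples did not overlap for 11 in PFC and 8 in STR, against 17.1% and 13.5% of all genes. These genes were chosen by the p of the difference, so nothing is read from that count. *Rxrg*, the retinoid X receptor gamma, had 5.39, 3.77 and 4.70 CPM in WT and 9.93, 8.94 and 11.4 CPM in KO PFC, against 106, 101 and 126 and 71.6, 101 and 107 CPM in STR. All KO samples were above WT in PFC, while the STR groups overlapped, and replicate 1 gave the low STR value. The log2 fold change was 1.14 (SE 0.23) in PFC and -0.25 (SE 0.13) in STR, with an FDR of the difference of 0.384, or 0.0447 with 1 animal per number. *Oprk1*, the kappa opioid receptor, had 5.52, 7.06 and 8.89 CPM in WT and 11.3, 16 and 12.7 CPM in KO PFC, and 65.3, 55.9 and 66.1 and 57.7, 61.3 and 63.4 CPM in STR. Its fold change was 0.93 (SE 0.17) in PFC and -0.04 (SE 0.12) in STR on the log2 scale.

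*Gnb4*, a G protein beta subunit, rose in PFC from 34.5, 37.9 and 34.0 to 55.0, 47.1 and 56.7 CPM (log2 fold change 0.57, SE 0.10, FDR 0.0308), and in STR its groups overlapped (116, 108 and 124 CPM in WT, 103, 98.4 and 115 CPM in KO). *Pamr1*, a secreted protein with a protease-like domain, fell in STR from 19.5, 22.0 and 16.5 to 10.9, 11.5 and 10.6 CPM (log2 fold change -0.81, SE 0.14, FDR 0.0468) and overlapped in PFC (83.5, 62.5 and 69.5 CPM in WT, 77.6, 80.3 and 81.7 CPM in KO). *Plppr1*, a phospholipid phosphatase-related membrane protein of neurons, had a difference of 0.67 (SE 0.15), with KO above WT in PFC and below in STR. *Sstr2*, a somatostatin receptor called with 1 animal per number (FDR 0.0475), had 35, 30.6 and 36 CPM in WT and 19.8, 23.2 and 18.5 CPM in KO STR, and 50.8, 43.3 and 64.5 and 57.9, 59.1 and 50.5 CPM in PFC. KO and WT samples were thus separate in PFC alone for *Gnb4*, in STR alone for *Pamr1* and *Sstr2*, and in both regions for *Plppr1*. *Gnb4* and *Oprk1* are also markers of the claustrum and endopiriform nucleus, which adjoin both regions. The summed level of the 7 markers of that list was 423 to 445 CPM in WT and 446 to 478 CPM in KO PFC, and 454 to 504 CPM in WT and 450.1 to 539.7 CPM in KO STR. Of the 7, 4 had a positive difference, with a median of 0.71 (0.35 without STR KO replicate 1), *Gnb4* and *Oprk1* were the only members higher in KO PFC at an unadjusted p under 0.05, and *Lxn* and *Gng2* had log2 fold changes there of -0.07 and 0.07. The part of this tissue in the result was not tested.

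Markers of striatal projection neurons had differences in the same direction. Of 18 tested, 16 had a positive difference and 7 had an unadjusted p under 0.05, all positive, against 2.51% of all genes, and the median difference was 0.19 against 0.01 over all genes. In PFC 4 of the 18 were higher in KO samples at an unadjusted p under 0.05 (4.87% of all genes), and in STR 4 were lower (4.21% of all genes). *Drd1* and *Drd2*, the D1 and D2 dopamine receptors of the direct and indirect striatal pathways, both belonged to the 7. *Drd1* had 25.0, 19.4 and 20.6 CPM in WT and 28.5, 29.7 and 28.5 CPM in KO PFC, with no overlap, and 222, 194 and 230.1 and 167, 199.8 and 214 CPM in STR. *Drd2* had 0.981, 1.55 and 1.05 CPM in WT and 3.31, 1.96 and 1.93 CPM in KO PFC, and 103, 95.8 and 108 and 77.8, 94.7 and 99.7 CPM in STR. The differences were 0.57 (SE 0.16, unadjusted p = 0.00273) and 1.12 (SE 0.33, unadjusted p = 0.00410). The summed level in PFC was 876 to 913 CPM in WT and 910 to 989 CPM in KO samples, so it overlapped by a narrow margin. Without STR KO replicate 1, whose sum was lowest in STR, 12 of 18 differences were positive with a median of 0.11, 3 of 18 had an unadjusted p under 0.05, and the number lower in STR went from 4 to 0. The median was 0.11 to 0.29 over all libraries left out in turn.

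On the other side, the 12 genes with a more positive effect in STR did not overlap in PFC for 10 and in STR for 6, against the same shares of all genes and chosen in the same way. *Nkx6-2*, a homeobox transcription factor of oligodendrocytes, had 23.4, 30.3 and 29.8 CPM in WT and 13.7, 13.2 and 12.5 CPM in KO PFC. In STR it had 25.8, 27.1 and 26.7 and 48.0, 25.5 and 27.9 CPM, where replicate 1 stood high. The log2 fold change in PFC was -1.08 (SE 0.20), and the difference of -1.43 (SE 0.28) had an FDR of 0.384, or 0.0475 with 1 animal per number. *Il33*, a cytokine stored in glial nuclei, fell in PFC from 90.7, 109 and 112 to 68.2, 64.6 and 55.2 CPM (log2 fold change -0.72, SE 0.12, FDR 0.0282), and its STR samples overlapped (78.8, 91.6 and 89.1 CPM in WT, 99.9, 75.1 and 86.4 CPM in KO). *Thbs4*, a secreted thrombospondin, had the lowest FDR of all genes in PFC: it fell from 15.6, 17.3 and 13.6 to 3.44, 3.79 and 3.58 CPM, to 0.232 of the WT level (log2 fold change -2.11, SE 0.23, FDR 0.00316). In STR, at 6.91, 4.97 and 4.33 CPM in WT and 2.41, 3.42 and 4.79 CPM in KO samples, the groups overlapped, and the difference was -1.48 (SE 0.34, FDR 0.386).

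For *Itih3*, *Ednrb*, *Ddc*, *Ctxn3* and *Col9a2*, all KO samples were above all WT samples of STR. *Itih3*, a hyaluronan-binding plasma protein gene, had 52.1, 44.6 and 52.3 CPM in WT and 153, 84.7 and 82.6 CPM in KO STR, and 45.2, 50.4 and 43.4 and 41.7, 37.9 and 39.6 CPM in PFC. Replicate 1 was the highest, but replicates 2 and 3 also exceeded every WT sample, and the FDR of the difference was 0.384 with and 0.0154 without replicate 1. *Ednrb*, the endothelin B receptor, had 74.0, 69.6 and 74.2 CPM in WT and 121, 84.7 and 96.7 CPM in KO STR, with a difference of -0.67 (SE 0.15). *Ddc*, the decarboxylase of dopamine and serotonin synthesis, had 23.4, 25.6 and 26.0 CPM in WT and 46.0, 32.0 and 38.1 CPM in KO STR, and 11, 14.6 and 11.3 and 11.2, 9.79 and 8.94 CPM in PFC, with a difference of -0.95 (SE 0.22). *Ctxn3* and the collagen gene *Col9a2* had differences of -1.22 (SE 0.26) and -1.25 (SE 0.28) at levels under 30 CPM, and *Sspn*, a membrane protein of the dystrophin complex, whose samples were separate in PFC and not in STR, of -0.79 (SE 0.17).

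Genes of myelin and oligodendrocytes, which wrap axons, had the largest share of members with a difference among the 38 lists. All 20 were tested, all 20 had a negative difference, and 17 had an unadjusted p under 0.05 (85% of the list against 3.89% of all genes), with a median difference of -0.63. In PFC 19 of the 20 were lower in KO samples at an unadjusted p under 0.05 (4.64% of all genes), with a median log2 fold change of -0.64, and in STR none was, with a median of -0.07. The summed level was 2937 to 3742 CPM in WT and 2271 to 2493 CPM in KO PFC, with no overlap, and 2517 to 2945 CPM in WT and 2331 to 3055 CPM in KO STR. *Mog*, a surface protein of myelin, fell in PFC from 64.9, 79.3 and 80.2 to 41.4, 39.4 and 37.0 CPM (log2 fold change -0.93, SE 0.13, FDR 0.0176). Its STR values were 55.0, 65.3 and 56.1 CPM in WT and 62.6, 45.1 and 42.7 CPM in KO samples, where replicates 2 and 3 were below every WT sample and replicate 1 was not. *Opalin*, a transmembrane protein of myelinating cells, fell in PFC from 32.6, 38.7 and 38.0 to 19.5, 17.5 and 19.5 CPM (log2 fold change -0.95, SE 0.13, FDR 0.0176), and the STR samples had 24.7, 28.7 and 24.9 and 29.0, 20.9 and 20.7 CPM. The differences were -0.70 (SE 0.19) for *Mog* and -0.81 (SE 0.19) for *Opalin*.

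*Tspan2*, a tetraspanin of oligodendrocytes, also fell in PFC (144, 161 and 158 CPM in WT, 106, 98.0 and 89.4 CPM in KO, FDR 0.0308), and the STR groups overlapped. *Ermn* and *Aspa*, which encode a cytoskeletal protein of the myelin sheath and the enzyme that splits N-acetylaspartate, had FDRs of the difference of 0.627 and 0.549, or 0.0490 and 0.0490 with 1 animal per number. *Mbp*, myelin basic protein, had the smallest change of the 20 in PFC, with 513, 504 and 709 CPM in WT and 536, 505 and 524 CPM in KO PFC and a log2 fold change of -0.14 (SE 0.12). Without STR KO replicate 1, the median difference was -0.46, 12 of 20 had an unadjusted p under 0.05 and 8 of 20 were lower in KO STR at that threshold with a median of -0.23. Over all libraries left out in turn the number was 12 to 19, and 19 of 20 were lower in PFC in each of these fits. The difference stayed negative for all 20 without STR KO replicate 1, and for 19 of 20 without PFC WT replicate 3.

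**Figure D3:**
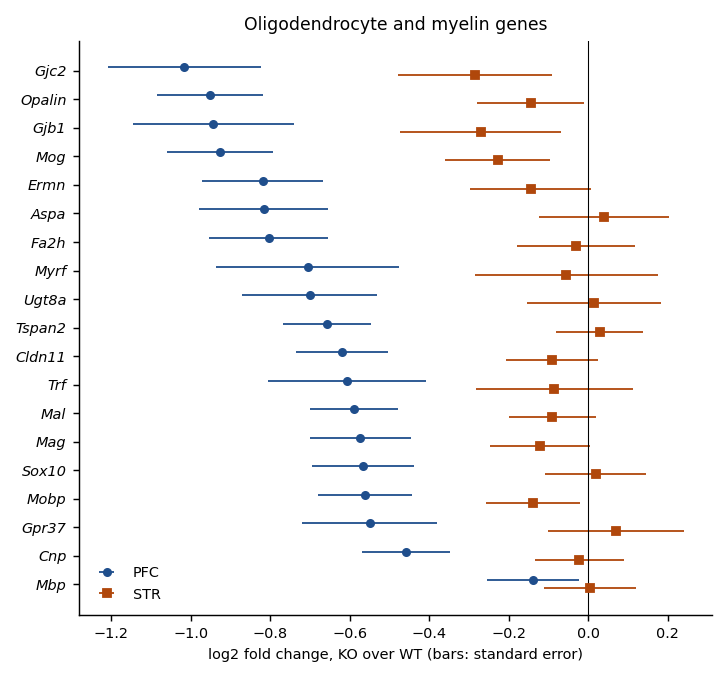
log2 fold change of KO over WT in PFC (circles) and STR (squares) for 19 of the 20 oligodendrocyte and myelin genes, with bars for the standard error. All 19 PFC values lie left of the STR values, and *Mbp* has the smallest PFC change.

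Markers listed for earlier cells of the lineage and for astrocytes had differences in the same direction. All 9 oligodendrocyte precursor markers had a negative difference (median -0.39), 3 with an unadjusted p under 0.05 (3 to 5 with 1 library left out), against 3.89% of all genes. *Olig2*, a transcription factor of the whole lineage, had 45.1, 64.9 and 53.8 CPM in WT and 38.9, 32.8 and 39.1 CPM in KO PFC, and 44.5, 51.9 and 47.8 and 64.2, 42.9 and 49.2 CPM in STR, with a difference of -0.69 (SE 0.21). *Pdgfra* and *Cspg4*, which define precursors, had log2 fold changes in PFC of -0.01 (SE 0.12) and -0.04 (SE 0.16), while *Bcas1*, of newly myelinating cells, fell there (131, 146 and 167 CPM in WT, 90.5, 88.3 and 85.1 CPM in KO, FDR 0.0400). All 14 astrocyte markers had a negative difference (median -0.23), 7 with an unadjusted p under 0.05, or 5 without STR KO replicate 1, against the same 3.89%. *Gfap*, the intermediate filament of astrocytes, had 163, 165 and 167 CPM in WT and 126, 112 and 119.7 CPM in KO PFC, with no overlap, and 105, 106 and 76.5 and 115, 119.8 and 99.5 CPM in STR. Its difference was -0.68 (SE 0.15), while *Slc1a2* and *Slc1a3*, the glutamate transporters of astrocytes, had differences of -0.03 (SE 0.14) and -0.12 (SE 0.10). *Agt*, angiotensinogen, had the largest astrocyte difference, -1.94 (SE 0.56), with 19.9, 15 and 21 CPM in WT and 98.2, 36.2 and 36.8 CPM in KO STR. None of the 14 microglia and none of the 16 endothelial and mural markers reached an unadjusted p under 0.05 for the difference. Of the endothelial and mural markers, however, 15 had a negative difference (median -0.18), and 3 were lower in KO PFC at that threshold (4.64% of all genes). With 1 animal per number 2 of these markers had an unadjusted p under 0.05 for the difference, each negative. Over all genes 899 of 16028 were so with a negative difference (10.2% in either direction). Their median was -0.08 without STR KO replicate 2.

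Markers of tissue that adjoins STR, and of cholinergic neurons, were also listed, and the filter on low counts limits what some of these lists can show. Of 20 hypothalamic markers 10 passed the filter, and 6 of these were higher in KO STR at an unadjusted p under 0.05 (6.74% of all genes), with a median log2 fold change of 1.07 in STR, -0.01 in PFC and a median difference of -1.27. The filter keeps a gene that reaches the minimum count in as few samples as a group holds. A marker high in KO STR alone could thus pass, as *Oxt* did. These counts and medians are therefore in part selected for a high level in KO STR, and no support is drawn from them. The summed level was 104 to 156 CPM in WT and 150 to 496 CPM in KO STR, against 20.6 to 40.3 CPM in all PFC samples. Without STR KO replicate 1 the median in STR was 0.64 and the median difference -0.54, with 6 still at an unadjusted p under 0.05 in STR. The differences of *Oxt* and *Avp* were -4.00 (SE 2.47, unadjusted p = 0.135) and -4.67 (SE 2.33, unadjusted p = 0.0740). Without STR KO replicate 1 they were -2.53 and -2.25. *Oxt* had 1 to 6 counts in the PFC samples, 3 to 10 in WT STR and 21 to 355 in KO STR, and *Avp* had 3 to 17, 4 to 15 and 20 to 563. Cholinergic neuron markers stand for a cell type and not for a neighbouring tissue. Their sum was 88.3 to 93.7 CPM in WT PFC and 247 to 330 CPM in WT STR. All 7 cholinergic neuron markers tested had a negative difference (median -0.87). In KO STR 5 were higher at an unadjusted p under 0.05 (6.74% of all genes), and 3 were so without STR KO replicate 1. The median difference of the 7 was -1.70 without PFC KO replicate 3 and -0.34 without PFC WT replicate 3. Of 10 thalamic markers, 8 had a negative difference and 4 of these an unadjusted p under 0.05, against 3.89% of all genes. The 4 became 2 without STR KO replicate 1, and 1 to 6 over all libraries left out in turn. Of 10 septal and bed nucleus markers 5 were higher in KO STR at that threshold, against 6.74% of all genes. Of 12 choroid plexus markers 5 passed the same filter, so these too may be in part selected for a high level in KO STR. Of the 5, 1 was higher in KO STR at an unadjusted p under 0.05 (6.74% of all genes) and 1 in KO PFC (4.87%). All 12 summed to 84.7 to 91.1 CPM in WT STR and to 147, 101 and 103 CPM in KO STR replicates 1, 2 and 3. Among single genes 7.21% had all KO samples above WT in STR. Part of these markers are shared between lists, and whether more of the neighbouring tissue in some STR samples took part in any result above was not tested.

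All 8 cortical glutamatergic markers had a positive difference, with a median of 0.69 in all samples, 0.18 without STR KO replicate 1 and 0.43 without STR WT replicate 2. Of the 8, 1 had an unadjusted p under 0.05, against 2.51% of all genes. From the list of deep layer markers, *Fezf2*, which specifies corticospinal neurons, had a difference of 0.84 (SE 0.26), with 13.8, 11 and 9.75 CPM in WT and 5.83, 10.8 and 6.06 CPM in KO STR, and its groups overlapped in both regions. For the meningeal and fibroblast list the sign rested on 1 library: all 12 differences were negative with a median of -0.56, but without STR KO replicate 2 the median was 0.30 and 10 of 12 were positive. Among 17 immediate early genes 16 had a positive difference (median 0.32), none with an unadjusted p under 0.05. With 1 animal per number 5 had one, all positive, against 737 of 16028 genes with a positive difference (10.2% of all genes in either direction). The median was 0.06 without PFC WT replicate 2 (11 of 17 positive), 0.55 without PFC KO replicate 3, 0.46 without STR WT replicate 2 and 0.09 without STR KO replicate 3, the libraries with the lowest sums.

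**Figure D4:**
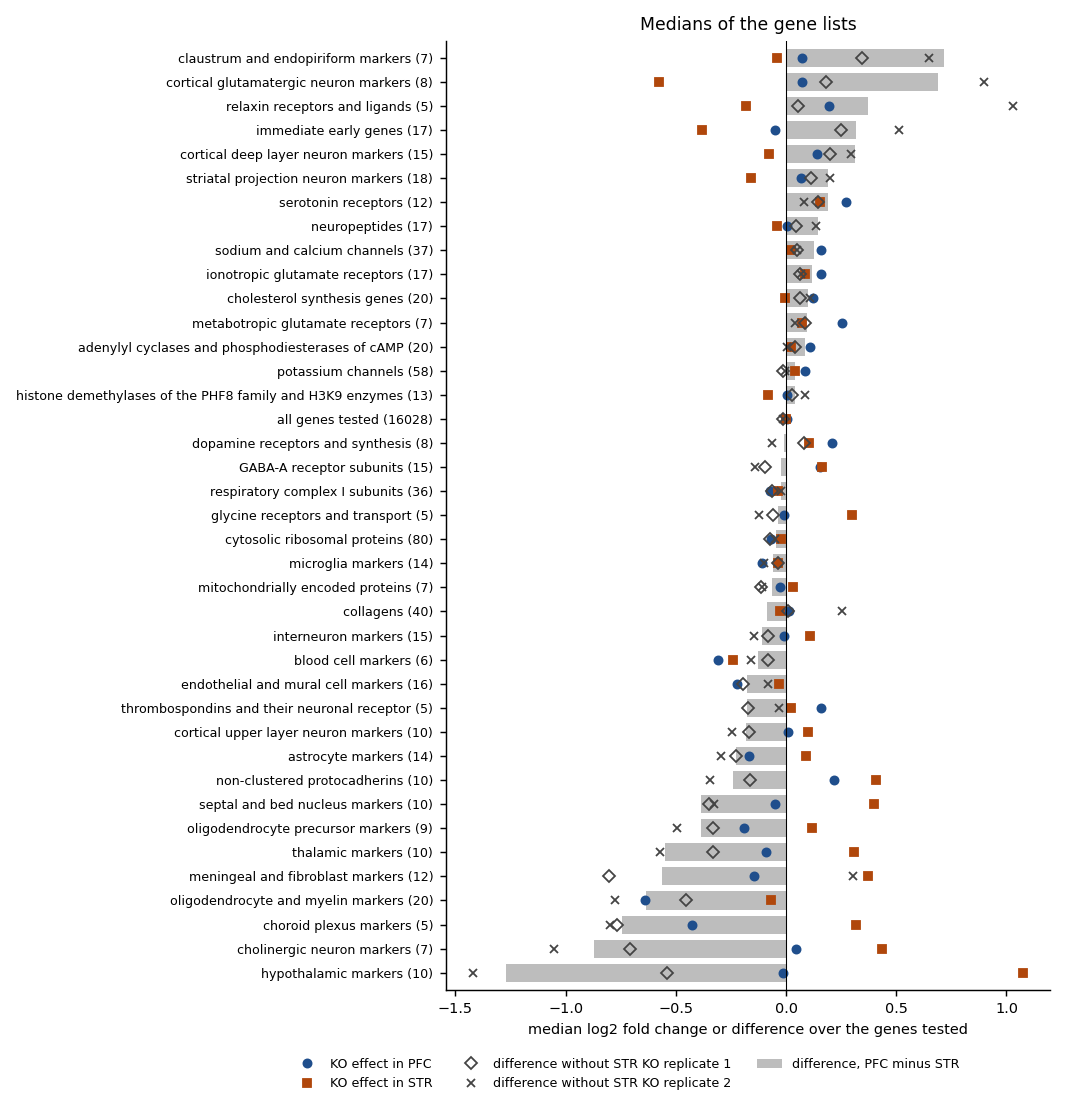
Median over the tested genes of 38 gene lists (number of genes in parentheses) and of all genes: log2 fold change of KO over WT in PFC (circles) and in STR (squares), and the difference between them with all 12 samples (bars), without STR KO replicate 1 (diamonds) and without STR KO replicate 2 (crosses). The myelin list has a PFC median of -0.64 and a STR median of -0.07, the hypothalamic difference goes from -1.27 to -0.54 without replicate 1, and the meningeal difference from -0.56 to 0.30 without replicate 2. The hypothalamic medians are in part selected for a high level in KO STR by the filter, so no support is drawn from them.

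Serotonin receptors had no FDR under 0.05 for the difference. Of 12 tested, 2 had a positive and 1 a negative difference at an unadjusted p under 0.05 (1 and 0 without STR KO replicate 1), against 2.51% and 3.89% of all genes. The median was 0.19, and 0.08 without STR KO replicate 2 and 0.10 without STR WT replicate 2. *Htr1b*, a presynaptic inhibitory receptor, had 10.4, 15.2 and 19.0 CPM in WT and 29.7, 24.7 and 25.9 CPM in KO PFC, with no overlap. In STR, where it is more abundant, it had 66.5, 55.9 and 76.4 CPM in WT and 77.9, 67.6 and 63.9 CPM in KO samples. The fold changes of 0.87 (SE 0.18) in PFC and 0.08 (SE 0.15) in STR on the log2 scale differed by 0.79 (SE 0.23, unadjusted p = 0.00435, FDR 0.620). *Htr1a*, another inhibitory receptor, was higher in all KO than in all WT samples of each region (20.8, 27.5 and 24.9 CPM in WT and 37.5, 42.4 and 48.4 CPM in KO PFC, 22.3, 32.3 and 29.7 and 43.5, 33.6 and 45.2 CPM in STR), and its difference was 0.26 (SE 0.22, unadjusted p = 0.252). *Htr2a*, an excitatory receptor, had KO above WT in PFC (20.1, 17.8 and 15.5 CPM in WT, 28.3, 25.0 and 32.5 CPM in KO). In STR, replicate 3 alone exceeded the WT samples (22.5, 22.9 and 24.2 CPM in WT, 20.5, 21.5 and 35.2 CPM in KO), and the difference was 0.53 (SE 0.25, unadjusted p = 0.0564). It was 0.80 without that library (unadjusted p = 0.000610) and 0.36 without STR KO replicate 1. Over all libraries left out in turn the unadjusted p was 0.000610 to 0.159. With 1 animal per number the difference of *Htr2a* had an unadjusted p of 0.00887 and an FDR of 0.266. *Htr7* had the reverse order, with 20.8, 18.6 and 19.1 CPM in WT and 44.7, 27.9 and 30.0 CPM in KO STR, overlapping groups in PFC and a difference of -0.55 (SE 0.23, unadjusted p = 0.0303).

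Among 8 genes of dopamine reception and synthesis tested, *Drd1*, *Drd2* and *Drd5* had a positive and *Ddc* a negative difference at an unadjusted p under 0.05. The shares of all genes were 2.51% and 3.89%. *Drd5*, a D1-like receptor, had 4.29, 2.90 and 3.31 CPM in WT and 4.33, 10.4 and 8.39 CPM in KO PFC, where replicate 1 exceeded the highest WT sample by a small margin, and 7.93, 5.10 and 7.31 and 6.97, 6.96 and 6.48 CPM in STR. The kainate receptor subunit gene *Grik2* was among the 28 reversed genes, with 85.7, 71.4 and 75.8 CPM in WT and 96.5, 85.4 and 90.0 CPM in KO PFC, 199, 153 and 176 and 143, 161 and 140.3 CPM in STR, and overlapping groups in both. It was the single one of 17 ionotropic glutamate receptor genes with an unadjusted p under 0.05 for the difference (5.88% of the list against 6.41% of all genes). Of 58 potassium channel genes, 5 had a positive and 3 a negative difference at that threshold, and of 37 sodium and calcium channel genes 3 and 3, against 2.51% and 3.89% of all genes. No gene reached an unadjusted p under 0.05 among 13 PHF8-family demethylases and H3K9 enzymes, *Phf8* included, 80 cytosolic ribosomal proteins, 36 complex I subunits and 7 mitochondrially encoded proteins, and their medians lay between -0.06 and 0.04 and changed sign when 1 library was left out.

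Across all 16028 genes the log2 fold changes of the regions were weakly related, with a Pearson r of 0.199 and a Spearman rho of 0.232 across genes, which are not independent replicates. The sign was the same for 59.3% of genes, and the slope of STR on PFC was 0.217. The spread of the fold changes was similar, with an SD over genes of 0.294 in PFC and 0.320 in STR. Among the 8014 genes at or above the median expression r was 0.296, and below it 0.192. The 1523 genes with an unadjusted p under 0.05 in PFC (9.5% of genes) had the same sign in STR in 71.4% of cases, and the 1755 in STR (10.9%) had the same sign in PFC in 70.0%. Genes higher in KO PFC kept their sign in STR more often (76.3% of 780) than genes lower in KO PFC (66.2% of 743), a difference that was not tested. At an FDR under 0.05 there were 21 genes in PFC (0.131%), of which 5 (0.0312%) rose and 16 (0.0998%) fell, and 16 of the 21 had the same sign in STR. In STR there were 13 (0.0811%), of which 8 (0.0499%) rose and 5 (0.0312%) fell, and 11 of the 13 had the same sign in PFC. These counts moved with single libraries, from 1 (without PFC KO replicate 3) to 111 (without STR KO replicate 1) in PFC and from 2 (without PFC WT replicate 2) to 257 (without STR KO replicate 2) in STR. The 2 regions share no sample, but same-numbered samples of a genotype deviated from their group means in the same direction, and the part of this in r was not tested. Leaving out any 1 library gave an r of 0.125 (without STR KO replicate 3) to 0.258 (without STR KO replicate 1).

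**Figure D5:**
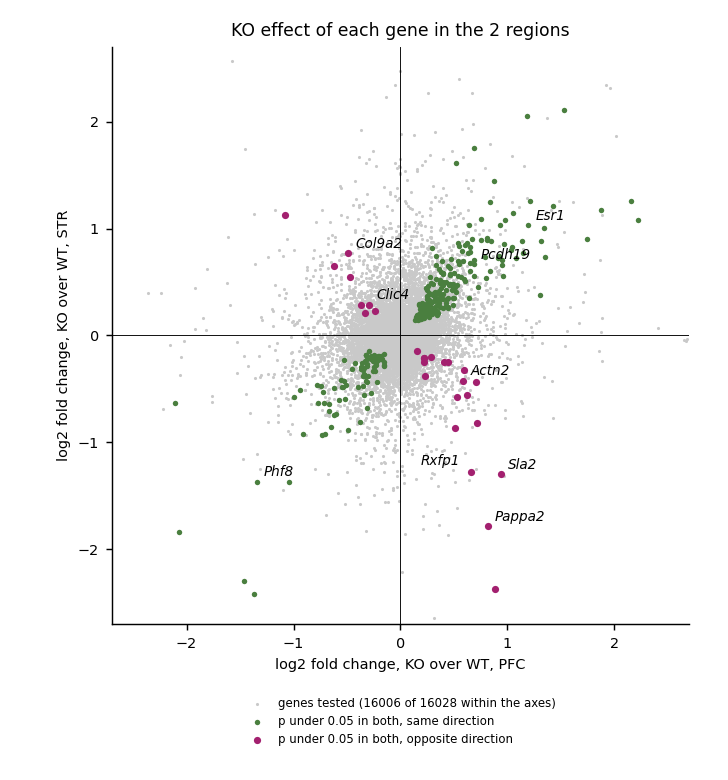
log2 fold change of KO over WT in PFC (x axis) and in STR (y axis) for each gene tested, 16006 of 16028 within the axes. Green points are the 307 genes with an unadjusted p under 0.05 in both regions and the same direction and magenta points the 28 with opposite directions. *Rxfp1*, *Actn2*, *Sla2* and *Pappa2* lie at the lower right, and *Phf8* lies at -1.34 in PFC and -1.37 in STR.

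A p that passed the threshold in a single region was not in itself a difference between the regions. Of 1188 genes with an unadjusted p under 0.05 in PFC alone, 404 (34.0%) had one for the difference, and of 1420 in STR alone 403 (28.4%) did. That threshold was passed in both regions by 335 genes (2.09%), the 28 reversed genes included. Those with the same sign numbered 307 (1.92% of genes), 217 up (1.35%) and 90 down (0.562%), and 182 (without PFC KO replicate 3) to 391 (without STR KO replicate 2) when 1 library was left out. After *Phf8* itself, the shared genes with the strongest evidence in the weaker region included X-linked genes of neuronal membranes. *Pcdh19*, a protocadherin whose human gene is mutated in an X-linked epilepsy, rose in both regions: from 67.3, 59.1 and 58.0 to 96.2, 97.4 and 103 CPM in PFC (FDR 0.0282) and from 50.7, 67.6 and 61.8 to 98.2, 81.5 and 106 CPM in STR (FDR 0.0468). Its fold changes of 0.68 (SE 0.11) and 0.67 (SE 0.11) on the log2 scale differed by 0.02 (SE 0.16). The FDR under 0.05 was kept in 17 alternative fits and lost in 5 in PFC, and kept in 9 and lost in 13 in STR. *Glra2*, a glycine receptor subunit on chromosome X, had 27.3, 24.8 and 26.7 CPM in WT and 43.4, 39.2 and 44.3 CPM in KO PFC, and 38.5, 43.3 and 47.5 and 66.8, 55.2 and 67.9 CPM in STR, again with no overlap.

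The other genes chosen by that rule, 6 in each direction, lay on autosomes. *Wdr6*, a WD40 protein, had 134, 132 and 132 CPM in WT and 178, 168 and 201 CPM in KO PFC, and 177, 193 and 195 and 311, 246 and 280.4 CPM in STR. *Esr1*, the estrogen receptor alpha, had 3.07, 2.71 and 2.96 CPM in WT and 7.13, 6.37 and 6.47 CPM in KO PFC, and 5.55, 9.42 and 6.23 and 18.2, 12.3 and 12.7 CPM in STR, with fold changes of 1.19 (SE 0.25) and 1.03 (SE 0.21) on the log2 scale. *Esr1* is also in the septal and bed nucleus list, and STR KO replicate 1 gave its highest STR value. Its STR fold change was 0.82 without that library and up to 1.28 (without STR WT replicate 2) over libraries left out. *Sdk1*, an adhesion molecule of synapses, and *Slc44a5*, a choline transporter-like protein, differed between the regions by 0.24 (SE 0.20) and 0.05 (SE 0.19). Besides *Phf8*, the genes lower in both with the strongest evidence in the weaker region were *Ezr*, which links membrane and actin, *Gxylt1*, a glycosyltransferase of Notch-type sugars, *Hipk4*, a protein kinase, *Creg1*, a lysosomal glycoprotein, and *March2*, a ubiquitin ligase. Their log2 fold changes ranged from -0.50 to -0.27 in PFC and from -0.47 to -0.22 in STR, and no KO sample overlapped a WT sample in either region for these 5 or for *Phf8*, where 2.55% of all genes were separate in both regions in 1 direction. In these genes the differences between the regions were -0.17 to 0.13, each with a standard error of 0.09 to 0.17. The shared genes were chosen by their p in both regions, so nothing is read from their separation.

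Of 597 X-linked genes tested, 22 (3.69%) were shared in direction, against 1.92% of all genes, and none was reversed, against 0.175%. The r across X-linked genes was 0.252, against 0.199 over all genes, and none of these differences was tested. The 22 included *Phf8* and 18 genes up in both regions. By distance from *Phf8*, 4 of 85 genes within 10 Mb were shared (*Fam120c*, *Fgd1*, *Tro* and *Trpc5*, all up), 7 of 167 between 10 and 50 Mb and 10 of 344 farther away.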

How the data were processed

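The deposited tables hold raw counts per gene, without normalization, 1 table per sample. To make them, the authors used STAR for alignment to GRCm38 (mm10) and HTSeq for counting over Ensembl release 75 gene models. The labels name CASAVA 1.7. Neither the strand setting nor the aligner and counter versions were given in the sources used here, so overlapping antisense genes may share reads. Rows for reads outside genes, ambiguous (2.52% to 2.66%) or mapped to several places (7.62% to 8.90%) were kept out of library sizes and tests. Gene names and positions came from GENCODE M21 on GRCm38: 37693 of 39179 identifiers matched, with 99.69% of the counts.

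Depth was 5898286 to 10148073 counts per sample. No pair of samples in a group had counts within sampling noise, so each was counted as 1 replicate. The chi-square per degree of freedom of such pairs was 1.89 to 2.60 in PFC KO and 3.07 to 8.03 in the other groups. These values do not show whether samples came from separate animals. Here, the 12 samples were fitted jointly with edgeR 4.0.16 in R 4.3.3 (filterByExpr with a minimum count of 10, TMM factors 0.965 to 1.04, robust quasi-likelihood test, common biological coefficient of variation 9.86%, 8 residual degrees of freedom), with 1 mean per group and no replicate block. Tests were 2-sided, with Benjamini-Hochberg adjustment over 16028 genes. Standard errors are the log2 fold change divided by the root of F, so they are approximate. CPM were computed from the counts here. The scripts were tested on simulated counts.

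Replicate numbers are shared across groups in the labels, which do not say what they mark. Correlations of deviations from the group means between same-numbered PFC and STR samples were 0.372, 0.186 and 0.376 in WT and 0.163, 0.183 and 0.144 in KO. The mean for other numbers was -0.156 and -0.0815. Deviations cancel out within a group, so these negative means follow from the positive ones and are no further evidence. In an alternative fit the number was taken to pair PFC and STR within a genotype as 1 animal, with the animal as a block. What the number marks was not tested. Between same-numbered WT and KO samples the correlations were 0.0372, -0.0338 and 0.0322 in PFC and 0.0581, -0.0202 and 0.131 in STR. Their means were 0.0118 in PFC and 0.0562 in STR, against -0.00595 and -0.0282 for other numbers.

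Genes were named by rule: any with an FDR under 0.05 for the difference, the 12 with the smallest p in each direction, 8 reversed genes, 6 shared genes per direction, the genes the study names for these regions, genes called with the animal as a block, and up to 4 members of a list at an unadjusted p under 0.05. Members named as low or unmoved, defining markers, and members shown in full for contrast, were in part chosen after their values were seen. Members and lists were chosen with earlier results of these data known, and lists are described by counts and medians, with no test. Lists overlap in part, and *Ctgf* was matched as *Ccn2*. Alternatives were RLE factors, other filters, no robust estimation, DESeq2 1.42.0, edgeR's likelihood ratio test, limma-voom (limma 3.58.1), replicate and animal blocks, separate fits per region, and each library left out. A random animal effect in limma-voom was added after seeing the data. ESC and NPC samples were not used, and single values of some list members are not reported here.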

Additional observations from a re-analysis of the deposited data

Results flagged for a closer look

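*Rxfp1* is listed for a closer look because a test of the difference itself, the genotype by region term, passed an FDR under 0.05. The KO effect was 0.66 in PFC and -1.28 in STR on the log2 scale, a difference of 1.94 (SE 0.20, FDR 0.00155), with KO above WT in all 3 samples of PFC and below WT in all 3 samples of STR. Groups of 3 samples were not searched for single deviating samples.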

How the results depend on the processing

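*Rxfp1* had an FDR under 0.05 in all alternatives that test the difference, which separate fits per region do not. The median difference of 12 of 38 lists changed sign in at least 1 alternative, among them the meningeal list (-0.56, and 0.30 without STR KO replicate 2). Of 1250 values of the 57 results on named genes, 1107 kept their direction and side of the threshold, 49 lost the call, 94 gained one and 0 changed sign. The number of genes with an FDR under 0.05 for the difference, 1 with all samples, was 2 with no filter on low counts, 19 in DESeq2, 26 in the likelihood ratio test and 12 with the animal as a block, and 1 to 3 with 1 library left out. The plain replicate block, which joins same-numbered samples of all 4 groups, gave 1 such gene, as did RLE factors, limma-voom and the random animal effect. For PFC, against 21, there were 35 genes with RLE factors, 100 with no filter, 42 with at least 10 counts in each sample, 128 in DESeq2, 192 in the likelihood ratio test, 35 with the replicate block, 98 with PFC fitted alone, 34 with the random animal effect, 2 with a log2 change over 1 and 1 to 111 with 1 library left out. For STR, against 13, there were 76 with no filter, 140.0 in DESeq2, 242 in the likelihood ratio test, 40.0 with the replicate block, 0 with STR fitted alone, 4 with a log2 change over 1 and 2 to 257 with 1 library left out. The cause was not tested. With STR fitted alone, 1346 genes had an unadjusted p under 0.05 in that edgeR quasi-likelihood fit, and DESeq2 was run on the joint design only.

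Agreement of the fold changes depended on which genes entered. Pearson r was 0.0224 with no filter, 0.277 with at least 10 counts in each sample, 0.265 with separate fits, 0.296 for genes at or above the median expression, and 0.459 and 0.280 for genes with an unadjusted p under 0.05 in PFC and in STR, with a range of 0.125 to 0.258 over libraries left out. Spearman rho was 0.0975 with no filter, 0.312 above the median, 0.472 and 0.353 for the genes chosen by p, and 0.116 to 0.293 over libraries. The share with the same sign was 50.9% with no filter, 71.4% and 70.0% for the genes chosen by p, and 56.4% to 62.3% over libraries. The slope was 0.0232 with no filter, 0.298 with at least 10 counts, 0.289 with separate fits, 0.311 above the median, 0.264 and 0.516 for the genes chosen by p, and 0.151 to 0.304 over libraries. Reversed genes, 28 with all samples, numbered 47 with no filter, 18 in DESeq2, 45 with the replicate block and 15 to 78 over libraries, and genes shared in direction numbered 182 to 391 over libraries. With 3 samples per group and a coefficient of variation of 9.86% between them, small differences between the regions were not detectable.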
